A study of Mus musculus with 23 samples.

Results

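The ileum of Pxr-/- mice was compared with that of wild-type (WT) mice when both had received pregnenolone 16α-carbonitrile (PCN), a steroid that activates the rodent pregnane X receptor (PXR, encoded by Nr1i2). The comparison took the arrays titled as PCN-treated ileum of either genotype, 6 of Pxr-/- PCN and 5 of WT PCN, 11 of the 23 arrays of the series, each from 1 male mouse. It asks what separates the genotypes in the gut when the ligand of the receptor is present. In a fit to all 23 arrays, 96 of 17727 tested genes differed, and 83 of them were lower in Pxr-/- mice. With the 11 PCN arrays fitted alone, 71 genes differed, 67 of them among those 96. The largest differences were in genes of the Cyp3a, Cyp2b and Cyp2c families, which encode cytochromes of drug and steroid metabolism. Esterase, glutathione transferase and drug efflux genes were lower too.

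WT animals were C57BL/6J males purchased from Charles River at 6 weeks of age. Pxr-/- animals had been backcrossed to the C57Bl/6J background and bred in the study's own facility for 10 years, and their age is not given in the sources used here. After 2 weeks of acclimatization, mice were allocated at random within genotype to PCN or to corn oil alone (CONT). PCN was given intraperitoneally in corn oil at 100 mg/kg once a day for 4 days, and all mice were killed at zeitgeber time (ZT) 6, that is, 6 h after the last injection. They had free access to food, and the study describes mice at that hour as semi-fasted. The control groups had received the same oil by the same route. Each group was allocated 6 mice, and 5 arrays of WT PCN were analysed here. Breeding origin is confounded with genotype: every WT mouse was bought and every Pxr-/- mouse was bred in house, so that an effect of the deletion, of the housing or of DNA that came with the deleted allele cannot be told apart.

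PXR is a nuclear receptor that binds drugs, steroids and bile acids in liver and gut epithelium and, paired with the retinoid X receptor, switches on genes that oxidise, conjugate and export foreign compounds. Its best described targets are the Cyp3a genes. In the small intestine, this system acts as a first barrier to ingested chemicals.

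Signals below are log2 normalized array signals of 1 probe per gene, and differences are Pxr-/- PCN minus WT PCN on the log2 scale with the standard error (SE). A gene was called lower or higher when its fold change exceeded 1.5 and its adjusted p did not exceed 0.05 in a limma fit to all 23 arrays with wash batch as an additional term. The median spot signal of the 11 arrays lay between 77.5 and 106.5 on the linear scale, and 62.7% to 67.9% of spots were well above background. Arrays of 1 group correlated across probes at 0.989 to 0.995 in WT PCN and 0.986 to 0.994 in Pxr-/- PCN. The wash batches held 2 and 3 arrays of WT PCN and 3 and 3 of Pxr-/- PCN. The defining markers of ileal epithelium were present at similar levels. Fabp6, the ileal bile acid-binding protein, ranged from 18.14 to 18.67 over both groups (difference -0.06, SE 0.08). Slc10a2, the ileal bile acid uptake transporter, differed by -0.04 (SE 0.11), Vil1, a brush border protein, by 0.10 (SE 0.07) and Cdh17, an intestinal cadherin, by 0.20 (SE 0.08, adjusted p = 0.558), and 0 of 9 ileal epithelium genes were called. The tissue was bulk ileum, so fewer cells of a type and less RNA per cell cannot be told apart for any gene below.

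The deleted gene was examined first. The Nr1i2 probe (mm9 chr16:38248745-38248804) gave signals of 12.53, 12.32, 11.57, 12.10 and 12.41 in WT PCN, and between 11.38 and 11.90 (median 11.74) in Pxr-/- PCN. The groups overlapped, since the third WT array lay below most Pxr-/- arrays. The difference was -0.46 (SE 0.15, adjusted p = 0.327) with PCN and -0.41 (adjusted p = 0.336) with oil alone. In the wash batches taken singly, the difference with PCN was -0.16 and -0.68, and the latter, in wash batch 2, was called (adjusted p = 0.0266). The probe was well above background on every array. Whether it lies in the deleted stretch was not analysed here, so it does not check the genotype labels.

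The genes that lead the comparison are the Cyp3a genes, and the stretch before their start sites is printed first because the half-sites that nuclear receptors bind are found there. Shown are the 250 bases before the start of 5 Cyp3a genes called lower, 5′ to 3′ on the gene's strand (RefSeq, build GRCm38.p6), with the half-sites AGGTCA and AGTTCA, on either strand, in capitals (TGACCT and TGAACT when read on the other strand). Cyp3a11 lies at chr5:145879855-145880104 on the minus strand, Cyp3a25 at chr5:146009618-146009867 on the minus strand (the first of its start sites), Cyp3a59 at chr5:146079008-146079257 on the plus strand, Cyp3a41a at chr5:145720137-145720386 on the minus strand and Cyp3a44 at chr5:145805875-145806124 on the minus strand.
Cyp3a11: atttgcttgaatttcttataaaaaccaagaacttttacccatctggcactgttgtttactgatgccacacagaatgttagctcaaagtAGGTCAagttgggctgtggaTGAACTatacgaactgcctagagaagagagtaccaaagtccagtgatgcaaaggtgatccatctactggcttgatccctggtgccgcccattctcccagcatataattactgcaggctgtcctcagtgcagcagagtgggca
Cyp3a25: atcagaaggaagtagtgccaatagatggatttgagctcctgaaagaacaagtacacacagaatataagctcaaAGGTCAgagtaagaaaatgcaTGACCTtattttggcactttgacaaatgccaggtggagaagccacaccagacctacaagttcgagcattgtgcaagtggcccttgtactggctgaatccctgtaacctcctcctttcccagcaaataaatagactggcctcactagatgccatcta
Cyp3a59: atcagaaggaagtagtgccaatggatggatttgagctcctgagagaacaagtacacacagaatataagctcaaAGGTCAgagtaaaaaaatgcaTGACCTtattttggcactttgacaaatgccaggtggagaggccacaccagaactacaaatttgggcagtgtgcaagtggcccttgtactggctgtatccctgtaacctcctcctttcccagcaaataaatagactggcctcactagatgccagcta
Cyp3a41a: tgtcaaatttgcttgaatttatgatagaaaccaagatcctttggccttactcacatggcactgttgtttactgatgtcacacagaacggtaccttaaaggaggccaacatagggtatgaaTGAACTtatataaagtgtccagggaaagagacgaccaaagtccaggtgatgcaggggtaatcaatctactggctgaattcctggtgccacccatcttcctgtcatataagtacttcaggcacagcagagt
Cyp3a44: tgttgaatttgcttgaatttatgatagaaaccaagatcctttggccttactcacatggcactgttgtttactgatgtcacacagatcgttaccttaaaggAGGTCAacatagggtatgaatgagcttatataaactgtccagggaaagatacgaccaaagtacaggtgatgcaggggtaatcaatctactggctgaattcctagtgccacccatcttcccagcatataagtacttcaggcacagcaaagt

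In Cyp3a11, an AGGTCA lay 162 to 157 bases before the start and an AGTTCA on the opposite strand at 142 to 137 bases. Cyp3a25 and Cyp3a59 shared 239 of 250 bases (95.6%), and both held AGGTCA at 177 to 172 bases and again, on the opposite strand, at 156 to 151 bases. Cyp3a41a and Cyp3a44 shared 236 of 250 bases (94.4%), but the AGGTCA of Cyp3a44 (150 to 145 bases) was not in Cyp3a41a, and the AGTTCA of Cyp3a41a (130 to 125 bases, opposite strand) was not in Cyp3a44. No half-site of either kind lay in the 250 bases of Cyp3a16, Cyp2b10 or Cyp2c55. AGGTCA was in the window of 22 of the 67 genes called lower that had a promoter in the table (32.8%). Of those in the enzyme and transporter families, 10 of 31 held it (32.3%), against 22 of 120 tested family genes not called (18.3%). The share was 14.2% of 13914 tested genes and 15.8% of all 27025 genes (14% of 32851 promoters). AGTTCA was in 13 of the 67 genes (19.4%), in 7 of the 31 (22.6%) and in 18 of the 120 (15%). It was in 11.1% of tested genes and 13.4% of all genes. Of the 12 genes called higher that had a promoter in the table, 3 held AGTTCA (25%) and 2 held AGGTCA (16.7%). These shares are descriptions, and nearly identical promoters, such as those of Cyp3a25 and Cyp3a59, count as separate genes. Exact DR3, DR4 and ER6 repeats of AGTTCA, searched on both strands, were in none of these windows. They were in only 0, 3 and 2 genes of the whole table, so their absence here says little. Repeats with a mismatch were not searched, and enhancers farther away were not analysed.

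Of the 17727 genes, 83 were called lower in Pxr-/- PCN (0.468%) and 13 higher (0.0733%), 96 in all (0.542%), and 1508 had an unadjusted p under 0.05. The median difference over all genes was 0.01 and the median SE 0.102. Of the 83 genes called lower, 72 had groups that did not overlap, against 158 genes with Pxr-/- arrays all lower among all those tested (0.891%). All 83 differed in the same direction in both wash batches, but they were selected over these same arrays, so this is no replication. Wash batches 1 and 2 taken singly gave 47 and 29 genes called lower. Differences larger than 4-fold were found for 21 of the 83 genes called lower and for 0 of the 13 called higher. Among the 13 called higher, 7 had groups that did not overlap, against 70 genes (0.395%) overall. Leaving out each of the 23 arrays in turn, 60 of the 96 genes were called in every fit. Among the genes named below, Csta2, Gsta2, Plb1, Ugt2a3, Defb6, Arntl, Cyp2c40, Cyp2c29, Cyp4b1, Senp5, Tmprss7, Ptgr1, Slc25a15 and Dnase1 were not called with the array slide as a fixed block. When the 11 PCN arrays were fitted on their own, Csta2, Defb40, Defb37, Defb6, Cyp2c29, Cyp4b1, Sult1d1, Senp5, Tmprss7, Abca8b, Bfsp1, Gzmk and Dnase1 were not called, and with the replicate number as a block Ugt2a3, Cyp2c40, Cyp2c29, Tmprss7 and Dnase1 were not.

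All but 1 of the 8 Cyp3a genes tested were called lower, with a median of -5.02 for the family. Cyp3a11, the main mouse counterpart of the human drug-metabolizing CYP3A4, had signals of 11.01, 12.51, 12.12, 12.36 and 11.59 in WT PCN, and of 6.17 to 7.08 (median 6.50) in Pxr-/- PCN. The lowest WT array thus lay far above the highest Pxr-/- array, and the difference of -5.40 (SE 0.32, adjusted p = 5.53e-10) corresponds to 42.1-fold. Cyp3a41a had 13.08, 14.81, 14.65, 15.09 and 14.09 in WT PCN and 5.73 to 7.15 (median 6.41) in Pxr-/- PCN. Its difference of -7.92 (SE 0.41, adjusted p = 7.37e-11, 243-fold) was the largest of all genes. Cyp3a16 (-6.17, SE 0.35, 72.2-fold) and Cyp3a44 (-5.56, SE 0.41, 47.2-fold) were each above background on 2 of 6 Pxr-/- arrays, so that these folds may understate the change. With the other processings described below, single wash batches included, their differences ran from -8.56 to -5.26 and from -7.46 to -4.78. In Cyp3a25, Cyp3a57 and Cyp3a59, the Pxr-/- arrays were higher and more spread: Cyp3a25 had 13.24, 13.74, 13.53, 13.98 and 13.58 in WT PCN against 8.02 to 10.46 (median 8.97) in Pxr-/- PCN. These 3 differed by -4.41 (SE 0.39, 21.3-fold), -4.42 (SE 0.38, 21.4-fold) and -4.65 (SE 0.36, 25-fold). Cyp3a13, the eighth member, differed by -0.47 (adjusted p = 0.114) and was not called. The Cyp3a transcripts are alike in sequence, and a probe may bind those of related genes, as may the probes of the Cyp2b, Cyp2c, Gst, Ugt, Abcb1 and Defb genes below, so the number of independent genes behind these calls is uncertain.

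**Figure D1:**
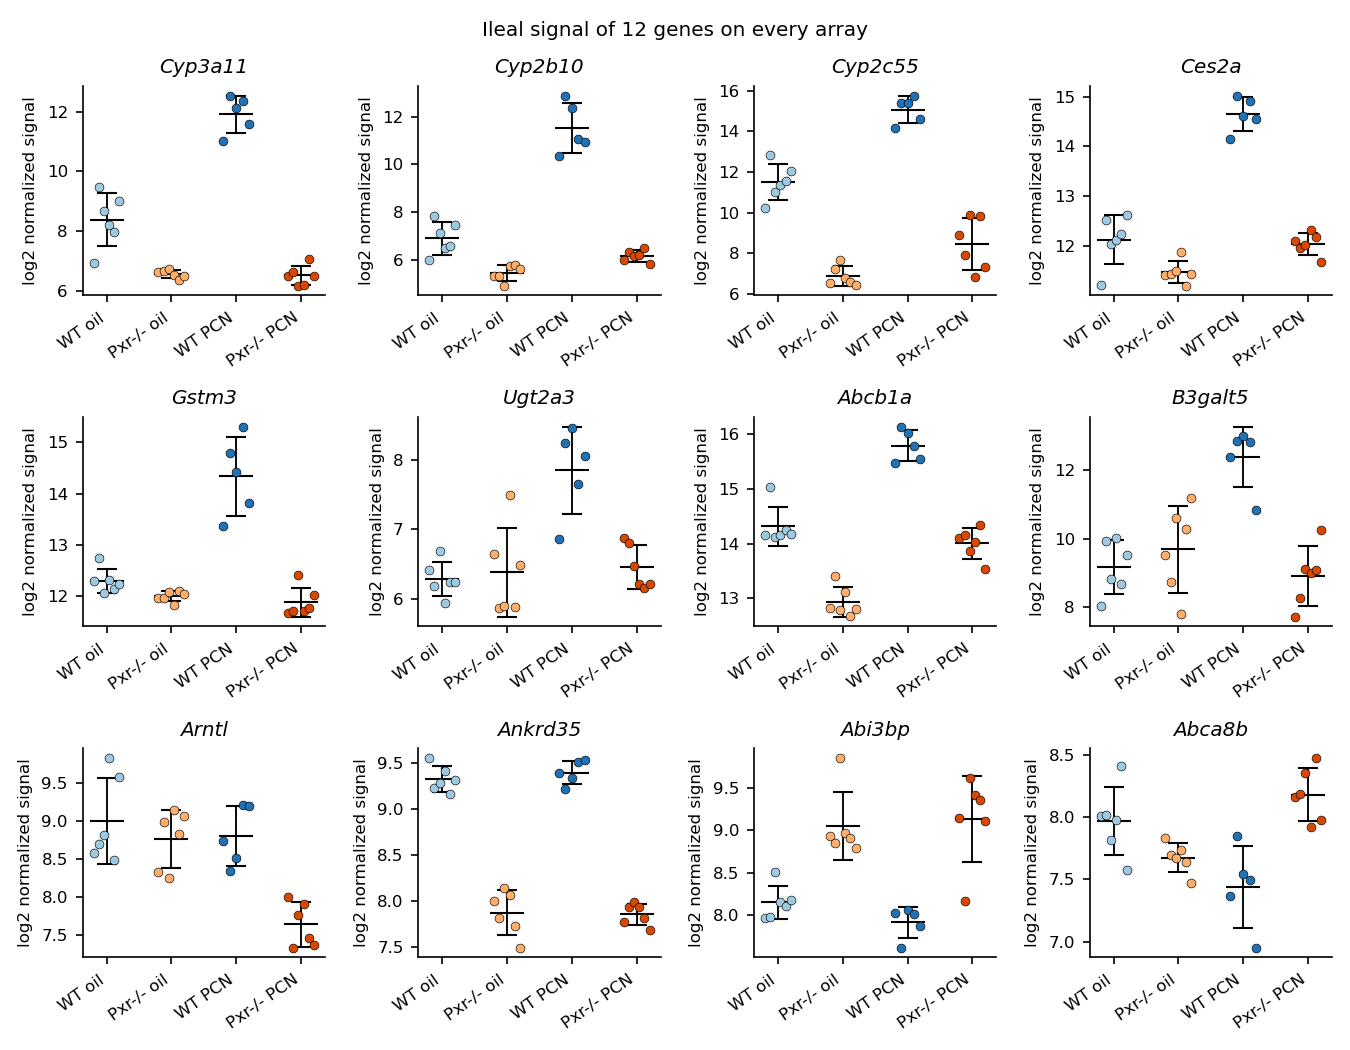
Log2 normalized signal (vertical axes) of 12 genes on each array, in the 4 groups of either genotype with oil (CONT) or PCN, with each point 1 mouse and bars for the mean ± SD. Cyp3a11, Cyp2b10 and Ces2a are high in WT PCN, while Ankrd35 separates the genotypes with and without PCN.

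Of 5 Cyp2b genes on the array, 2 were tested, and both were lower. Cyp2b10, which is also controlled by the constitutive androstane receptor, gave 10.35, 12.88, 12.37, 11.05 and 10.93 in WT PCN and 5.82 to 6.53 (median 6.18) in Pxr-/- PCN. WT arrays spread over a range of over 2 units, but none reached the Pxr-/- arrays, and the difference was -5.35 (SE 0.36, adjusted p = 3.22e-09, 40.8-fold). Cyp2b9 followed the same order of arrays, with 8.91, 11.15, 10.90, 9.57 and 9.41 in WT PCN against 5.26 to 5.51 (median 5.37), a difference of -4.62 (SE 0.29, 24.6-fold). It was above background on all WT PCN arrays but on 1 of 6 Pxr-/- PCN arrays, so that its low level, and with it the fold, was barely measured.

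In the Cyp2c family, 5 of 11 tested genes were lower. Cyp2c55, an arachidonic acid hydroxylase of the gut, had 14.19, 15.39, 15.41, 15.77 and 14.64 in WT PCN. In Pxr-/- PCN, it ran from 6.84 to 9.91 (median 8.40), so that the groups were clearly apart (-6.56, SE 0.47, adjusted p = 8.94e-09, 94.2-fold). With the other processings described below, single wash batches included, the difference ran from -8.23 to -5.18, so the fold depends on the processing. A second Cyp2c55 probe differed by -6.49. Its neighbours on chromosome 19, Cyp2c65 (-2.21, SE 0.26) and Cyp2c66 (-2.25, SE 0.27), were lower by 4.64-fold and 4.77-fold. Cyp2c40 (-1.05, SE 0.22, adjusted p = 0.0219) and Cyp2c29 (-0.97, SE 0.22, adjusted p = 0.0401) were nearer to the threshold. The call of Cyp2c40 was lost without Pxr-/- PCN array 2, 3, 4 or 6 or WT PCN array 2 or 3 (adjusted p up to 0.0694), and that of Cyp2c29 in 15 of the 23 fits that left out 1 array (adjusted p up to 0.135), all except those without Pxr-/- CONT array 1, 3 or 4, Pxr-/- PCN array 1 or 5 or WT CONT array 1, 2 or 3. Cyp2c67, Cyp2c68 and Cyp2c69 had differences of -0.67, -0.72 and -0.79 and did not pass the test (adjusted p = 0.0864, 0.111 and 0.0544). All 3 were called without Pxr-/- CONT array 4 or Pxr-/- PCN array 1, and Cyp2c69 also without Pxr-/- CONT array 1. The number of Cyp2c genes called thus ran from 3 to 8 when 1 array was left out. With all arrays, Cyp2c69 was called with a stricter filter on dim probes and with array weights. Of the 26 genes of the Cyp2d, Cyp2j and Cyp4 families, Cyp4b1 was lower (-0.93, SE 0.19) and Cyp4f16, of a family that hydroxylates leukotrienes, higher (0.86, SE 0.18, adjusted p = 0.0202). Both calls were lost without Pxr-/- PCN array 1, WT PCN array 2 or WT PCN array 4 (adjusted p of 0.0573 to 0.0743 for Cyp4b1, and 0.0612 to 0.0702 for Cyp4f16).

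Among enzymes that hydrolyse or conjugate, 2 of 12 carboxylesterases and 6 of 23 glutathione S-transferases were lower, and 0 of either were higher. Ces2a, an intestinal carboxylesterase that cleaves ester drugs, had 14.15, 15.02, 14.62, 14.91 and 14.55 in WT PCN and 11.69 to 12.33 (median 12.07) in Pxr-/- PCN. The groups were apart by more than 1.5 units (difference -2.59, SE 0.19, adjusted p = 1.87e-08, 6.03-fold). Ces2f, a gene of the same cluster, was lower by 2.39-fold (-1.26, SE 0.14). Gstm3, a cytosolic transferase that attaches glutathione to electrophiles, had 13.36, 14.78, 14.42, 15.31 and 13.82 in WT PCN against 11.66 to 12.40 (median 11.73), a difference of -2.47 (SE 0.23, adjusted p = 6.9e-07, 5.56-fold). The WT arrays again varied more than the Pxr-/- arrays, without overlap. Gsta2 (-1.74, SE 0.29), Gsta4 (-1.52, SE 0.22), Gstm6 (-1.29, SE 0.13), Gstm1 (-1.08, SE 0.15) and Gstm4 (-1.02, SE 0.14) were lower by 3.35-fold to 2.03-fold. The array annotation places the Gstm1 probe on chromosome 5, away from the Gstm genes on chromosome 3, so its assignment is uncertain. The median of the transferases was -0.18, with 20 of 23 below 0.

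Ugt2a3, which glucuronidates bile acids, was the only UDP-glucuronosyltransferase of 11 to be called, with 6.86, 8.23, 8.45, 7.65 and 8.05 in WT PCN and 6.16 to 6.87 (median 6.34) in Pxr-/- PCN. The lowest WT array lay level with the highest Pxr-/- array (-1.41, SE 0.27, adjusted p = 0.01), and without WT PCN array 3 the call was lost (adjusted p = 0.051). All 11 Ugt genes had differences below 0, with a median of -0.29, against 8006 of 17727 over all genes. Their probes may bind transcripts of related Ugt genes, so the 11 may not be independent. Ugt1a6b passed the adjusted p (-0.44, adjusted p = 0.0484) but not the fold threshold. Of the sulfotransferases, 1 of 10 was lower, Sult1d1, which sulfates catecholamines (-0.65, SE 0.12, adjusted p = 0.0073, not called without Pxr-/- PCN array 6, at -0.57). Akr1b7, an aldo-keto reductase that detoxifies lipid aldehydes, was the 1 of 13 aldo-keto reductases called. It gave 12.99, 13.18, 12.79, 12.78 and 12.72 in WT PCN and 11.42 to 11.77 (median 11.57) in Pxr-/- PCN (-1.32, SE 0.16, adjusted p = 3.38e-05), with no overlap. Aldehyde and alcohol dehydrogenases (0 of 24) and organic anion uptake transporters (0 of 7) had no gene called, with 2 and 1 at an unadjusted p under 0.05. Aldh1a7, an aldehyde dehydrogenase, was called lower without Pxr-/- PCN array 5 or WT PCN array 1 or 4.

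Of 43 ABC transporters, which pump compounds out of cells, 6 were lower and 1 higher. Abcb1a, 1 of the mouse genes for the drug pump P-glycoprotein, had 15.48, 16.15, 16.03, 15.79 and 15.54 in WT PCN and 13.54 to 14.34 (median 14.06) in Pxr-/- PCN, which did not overlap (-1.79, SE 0.17, adjusted p = 1.38e-06, 3.46-fold). Its neighbours Abcb1b, the other P-glycoprotein gene (-1.89, SE 0.17), and Abcb4, a phospholipid pump (-1.87, SE 0.18), differed by a similar amount, and so in the same direction did Rundc3b (-0.75, SE 0.14, adjusted p = 0.00809). The 4 probes lie within mm9 chr5:8490630-8959167. Abcc2, an apical pump for conjugated compounds, had 11.21, 12.37, 11.65, 11.55 and 11.63 in WT PCN against 9.97 to 10.82 (median 10.39), a difference of -1.29 (SE 0.23, adjusted p = 0.00564). Abcg5, the sterol exporter (-0.92, SE 0.11), and Abca1, a cholesterol exporter (-0.77, SE 0.13), were lower by 1.9-fold and 1.7-fold. Abcg8 was not called in this fit. It was called lower with median centring, without the wash batch term, with array weights, and with slide as a random or fixed block. The same held without Pxr-/- CONT array 4, Pxr-/- PCN array 1 or WT PCN array 1 or 3. Abca8b, a lipid transporter, went the other way, with 7.37, 7.85, 7.55, 7.49 and 6.95 in WT PCN and 7.92 to 8.48 (median 8.17) in Pxr-/- PCN (0.75, SE 0.14, adjusted p = 0.00554).

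Across the 12 families of enzymes and transporters described so far, 32 of 190 tested genes were lower and 2 higher (17.9%), and 51 genes lower and 11 higher were outside them. Among 13 genes that supply haem and electrons to the cytochromes, 1 was called. Cyb5a, the electron carrier cytochrome b5, was lower (-0.87, SE 0.10, adjusted p = 1.32e-05). Alas1, the first enzyme of haem synthesis, passed the adjusted p but not the fold threshold (-0.54, SE 0.10, adjusted p = 0.00429), and Por, the reductase of the cytochromes, differed by -0.43 (adjusted p = 0.0815). The other 10 were not called either. None of 22 nuclear receptors and partners was called, 3 of them at an unadjusted p under 0.05. The list genes of other ligand-activated or stress factors gave medians of -0.01 (NRF2 targets, 0 of 10 called), 0.00 (AHR targets, 0 of 3) and 0.11 (glucocorticoid receptor targets, 0 of 9), with 1, 0 and 0 at an unadjusted p under 0.05.

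**Figure D2:**
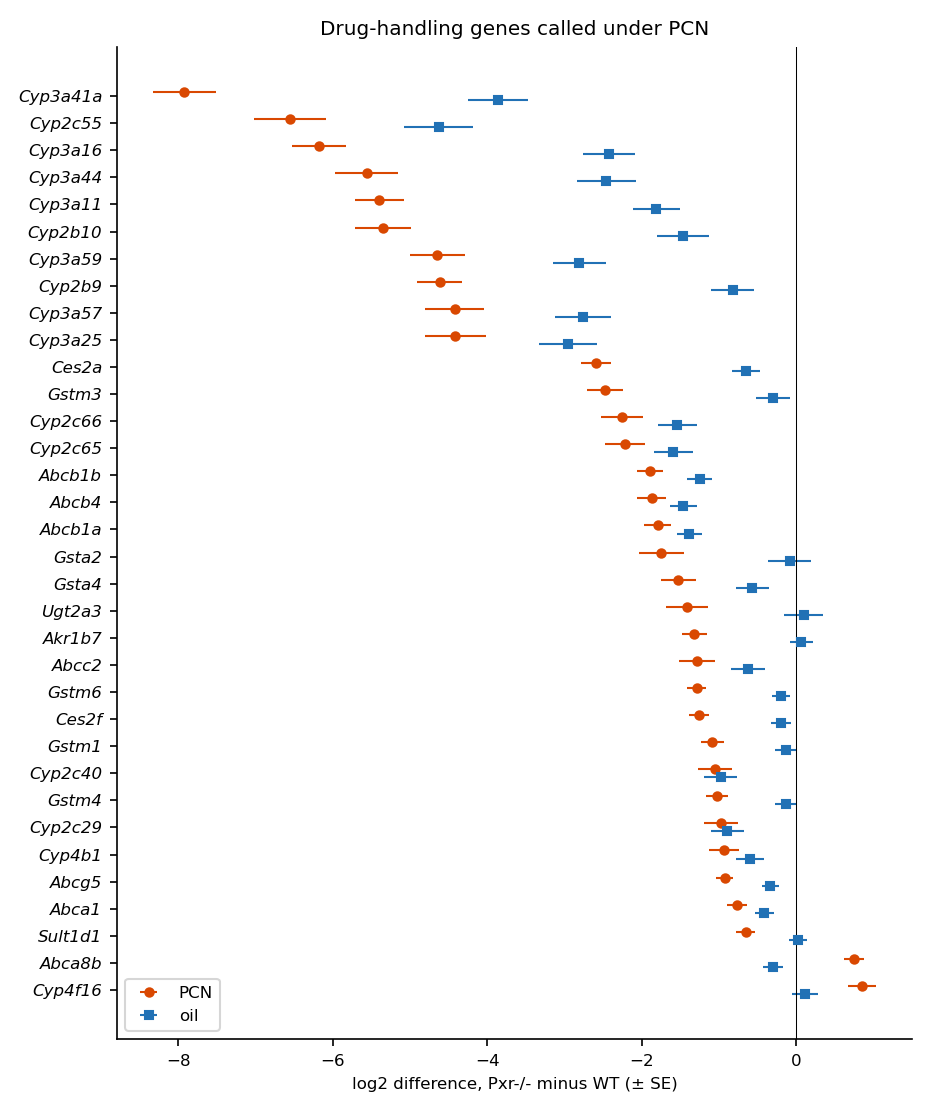
Genotype difference (log2, Pxr-/- minus WT) with PCN and with oil for the 34 enzyme and transporter genes called with PCN, with bars for the SE. The 32 genes called lower lie left of 0 with PCN, and Abca8b and Cyp4f16 lie right of it.

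Because oil-treated mice of both genotypes were hybridised too, on other arrays and from other animals, the genotype difference could be set beside that without the ligand. With oil alone, 38 genes were called (0.214%), of which 20 were also called with PCN, all in the same direction. Of the 83 genes called lower with PCN, 71 had the same sign with oil and 18 were called there. The Cyp3a genes were lower in Pxr-/- mice without the ligand as well, 7 of 8 called, with a median of -2.61. Cyp3a11 differed by -1.81 (adjusted p = 0.00698) with oil and Cyp2c55 by -4.63 (adjusted p = 8.6e-06). Abcb1a was lower by -1.38 (adjusted p = 0.000121). Cyp2b10 (-1.46, adjusted p = 0.0827) and Cyp2b9 (-0.82, adjusted p = 0.307) did not pass the test with oil, nor did Ces2a (-0.65, adjusted p = 0.187) or Gstm3 (-0.30, adjusted p = 0.771).

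Whether the genotype difference itself changed with the ligand was tested as an interaction, which uses all 4 groups. It was called for 21 genes (0.118%), 20 of them more negative with PCN. Among the 34 family genes called with PCN, 12 had such an interaction. Those of Cyp2b9 (-3.80, SE 0.41, adjusted p = 0.000146), Cyp2b10 (-3.89, SE 0.50, adjusted p = 0.000875), Cyp3a11 (-3.58, SE 0.44, adjusted p = 0.000875) and Cyp3a16 (-3.75, SE 0.48, adjusted p = 0.000875) were largest relative to their error. Cyp3a41a (-4.06, SE 0.56, adjusted p = 0.00182), Ces2a (-1.95, SE 0.27, adjusted p = 0.00182), Gstm3 (-2.17, SE 0.32, adjusted p = 0.00299) and Akr1b7 (-1.39, SE 0.22, adjusted p = 0.00713) were called too. For Cyp2c55, the interaction of -1.93 (SE 0.65, adjusted p = 0.787) did not pass, nor did those of Cyp3a25 (-1.46), Cyp3a57 (-1.66), Cyp3a59 (-1.84) or Abcb1a (-0.41), all at an adjusted p above 0.3. Of the 83 genes called lower, 18 were called for the interaction, 18 with oil, 4 in both ways and 51 in neither. For all genes not called for the interaction, those called with oil included, the size with and without the ligand is not shown to differ. Abca8b was the only gene with a positive interaction (1.05, SE 0.19, adjusted p = 0.0232), which missed the threshold without Pxr-/- CONT array 6, Pxr-/- PCN array 2 or 3, WT CONT array 1 or WT PCN array 1 (adjusted p of 0.0503 to 0.0555).

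**Figure D3:**
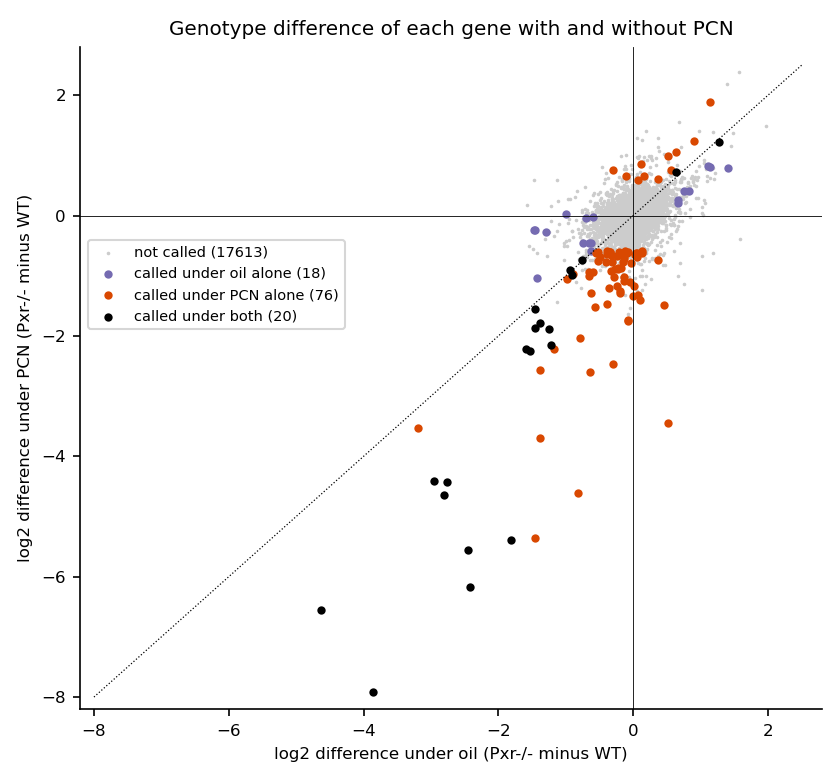
Genotype difference (log2, Pxr-/- minus WT) with PCN against that with oil for 17727 genes, coloured by whether a gene was called with PCN alone (76), with oil alone (18) or with both (20). The dotted line marks equal differences. Cyp3a41a (-7.92 with PCN, -3.86 with oil) and Cyp2c55 (-6.56 and -4.63) lie at the lower left.

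Outside the enzyme and transporter families, 51 genes were lower. The largest difference among them was that of Defb39, an antimicrobial β-defensin, with 10.32, 11.90, 11.24, 12.37 and 11.04 in WT PCN and 6.55 to 9.13 (median 7.39) in Pxr-/- PCN. Its groups did not overlap (-3.70, SE 0.42, adjusted p = 1.32e-05, 13-fold). The defensins Defb40 (-2.56, SE 0.43, adjusted p = 0.00222) and Defb37 (-2.22, SE 0.37, adjusted p = 0.00226), whose probes lie in the same cluster at mm9 chr8:18974949-19052977, were lower by 5.92-fold and 4.67-fold, but were not called with the 11 PCN arrays alone (adjusted p = 0.0905 and 0.0588). Defb6 (-1.20, SE 0.27, adjusted p = 0.0325) lost its call without Pxr-/- PCN array 1, 3, 4 or 5 or WT PCN array 1, 2, 3 or 5 (adjusted p up to 0.115). With oil, the 4 defensins differed by -1.38, -1.39, -1.17 and -0.35, and none of these passed the test.

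B3galt5, a galactosyltransferase that builds blood group-related sugar chains in the gut, had 12.38, 12.85, 13.01, 12.83 and 10.85 in WT PCN and 7.71 to 10.25 (median 9.04) in Pxr-/- PCN. The fifth WT array was far below the other 4, yet above all Pxr-/- arrays (-3.45, SE 0.54, adjusted p = 0.00121, 11-fold). With oil, the groups overlapped (8.02 to 10.01 in WT CONT, 7.79 to 11.20 in Pxr-/- CONT) and the difference was 0.52 (adjusted p = 0.866). The interaction of -3.97 (adjusted p = 0.0359) was lost in 16 of the 23 fits that left out 1 array (adjusted p of 0.0512 to 0.109), all except those without Pxr-/- CONT array 2 or 4, Pxr-/- PCN array 6, WT CONT array 2, 4 or 6 or WT PCN array 5. Cpm, a membrane carboxypeptidase that trims peptide ends, had 11.51, 11.64, 11.69, 11.90 and 11.81 in WT PCN and 10.06 to 10.85 (median 10.28) in Pxr-/- PCN, with 10.00 to 10.62 in WT CONT. Its difference was -1.34 (SE 0.15, adjusted p = 9.53e-06) with PCN and -0.00 with oil. The keratins Krt31 (-1.10, SE 0.13) and Krt7 (-0.87, SE 0.10) and B3gnt6, which extends mucin sugar chains (-1.02, SE 0.13), were lower by 1.82-fold to 2.15-fold.

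Plb1, a brush border phospholipase, gave 8.42, 8.13, 8.41, 8.25 and 8.25 in WT PCN against 6.41 to 7.26 (median 6.81) in Pxr-/- PCN (-1.49, SE 0.30, adjusted p = 0.0137), while with oil it differed by 0.46 (adjusted p = 0.705). Elovl6, which elongates fatty acids, was the only gene called of 17 for fatty acid synthesis (-0.69, SE 0.10, adjusted p = 0.000661). Of 26 genes of fatty acid oxidation and PPARα targets, 0 were called, 1 had an unadjusted p under 0.05, and the median was 0.02. Ppara itself differed by -0.13 (SE 0.17) and Gdf15, a stress-induced hormone, by -0.16 (SE 0.18), both with an adjusted p of 1. The probe of Fgf21, a metabolic hormone, was above background on 0 of 23 arrays.

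Arntl, the clock factor BMAL1, was the 1 gene called of 17 clock genes, with 8.74, 8.34, 8.52, 9.21 and 9.20 in WT PCN and 7.32 to 8.004 (median 7.61) in Pxr-/- PCN. The groups did not overlap (-1.17, SE 0.24, adjusted p = 0.0188), and the difference with oil was -0.23 (adjusted p = 0.862). Without WT PCN array 4 or 5, the adjusted p was 0.0682 and 0.0704. Dbp and Ciart, which are under the control of BMAL1, had differences of 0.78 (adjusted p = 0.25) and 0.81 (adjusted p = 0.211), and Nr1d2, a clock repressor, of 0.41 (adjusted p = 0.284). These were not called. The median of the list was 0.17.

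Some genes outside the families were called lower both with and without PCN. Ankrd35, an ankyrin repeat gene, had 9.38, 9.21, 9.33, 9.51 and 9.52 in WT PCN and 7.68 to 7.99 (median 7.87) in Pxr-/- PCN. The 2 groups were tight and apart, and the difference was -1.55 (SE 0.10, adjusted p = 2.87e-09) with PCN and -1.46 (adjusted p = 1.77e-08) with oil, with an interaction of -0.09 (SE 0.14). Fyb2, an adaptor protein gene, differed by -2.16 (SE 0.18) with PCN and -1.22 (adjusted p = 0.000594) with oil, and its interaction of -0.93 did not pass the test (adjusted p = 0.346). Cpm, Ankrd35, Fyb2, Plb1, Krt31, B3gnt6, Rundc3b, Ptgr1, the list members named without a call, the smaller defensins and the smaller Cyp, Gst and Abc members named above were chosen after their values were seen.

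The neighbourhood of Nr1i2 on chromosome 16 was set beside the rest of the genome, since DNA close to a deleted gene can remain from the strain of origin after a backcross. Of 149 tested genes with probes within 10 Mb of that of Nr1i2, 7 were called with PCN (4.70%), 5 with oil and 4 in both, against 89 of 17578 genes outside the window (0.506%) and 3 of 419 elsewhere on the chromosome (0.716%). The 3 elsewhere on the chromosome were B3galt5, which was lower, and Dnase1 and Abi3bp, which were higher. None of the 149 was called for the interaction. These shares are given with no test, and the part of such DNA in the differences was not tested. Arhgap31, a regulator of the cytoskeleton 0.35 Mb from the Nr1i2 probe, had 9.93, 9.64, 9.93, 9.75 and 10.14 in WT PCN and 8.70 to 9.005 (median 8.92) in Pxr-/- PCN. Its difference was -0.98 (SE 0.09, adjusted p = 7.76e-07) with PCN and -0.90 (adjusted p = 8.6e-06) with oil.

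The other 6 genes of the window lay farther off: Senp5, Pigx, Cep19 and Tctex1d2 within 5.82 to 6.27 Mb on one side, Csta2 at 1.99 Mb on the same side, and Tmprss7 at 7.41 Mb on the other. In 5 of them, Pxr-/- PCN arrays 2 and 5 were those nearest to WT. Their gap to the other 4 was wide in Csta2 and small in Tctex1d2. Csta2, a cathepsin inhibitor of the stefin family, had 9.77, 9.46, 9.86, 9.35 and 9.86 in WT PCN. Its signals in Pxr-/- PCN arrays 1 to 6 were 5.05, 8.68, 4.96, 4.90, 8.41 and 5.09. Arrays 2 and 5 thus lay between the groups, nearer to WT but below every WT PCN array, and the other 4 near background. In Pxr-/- CONT the signals were 5.22, 8.83, 4.66, 8.30, 5.03 and 4.75, with arrays 2 and 4 the highest. Pigx, which is needed for the synthesis of membrane anchors, ran from 11.21 to 11.48 in WT PCN and had 10.28, 10.81, 10.34, 10.43, 10.84 and 10.101 in Pxr-/- PCN. In Cep19, a centrosome gene, the Pxr-/- PCN arrays had 10.95, 11.33, 10.89, 10.89, 11.39 and 10.82. Again arrays 2 and 5 were the highest of the 6, and nearest to the WT range of 11.61 to 11.90. In Senp5, a SUMO protease, arrays 2 and 5 were the highest (8.02 and 7.74, the other 4 at 7.36 to 7.48), and in Tctex1d2, a dynein light chain gene that was higher in Pxr-/- mice, they were the lowest (9.85 and 10.13, the other 4 at 10.24 to 10.42). In Arhgap31, arrays 2 and 5 were the lowest of the 6 (8.70 and 8.85, the other 4 at 8.91 to 9.005), that is, not nearer to WT, and the range was narrower. Over all arrays, the differences were -3.54 (SE 0.76, adjusted p = 0.0267) for Csta2, -0.91 (SE 0.14) for Pigx, -0.74 (SE 0.13) for Cep19, -0.62 (SE 0.13) for Senp5 and 0.72 (SE 0.10) for Tctex1d2. With oil they were -3.19, -0.93, -0.75, -0.56 and 0.64. The call of Csta2 was lost without Pxr-/- PCN array 1, 3, 4 or 6 or WT PCN array 1, 2, 3 or 5 (adjusted p of 0.0664 to 0.0849), and that of Senp5 without Pxr-/- PCN array 3 or 6 or WT PCN array 2 or 5 (0.0511 to 0.0743). These genes were looked at array by array after their values were seen, and the cause of the pattern was not tested.

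**Figure D4:**
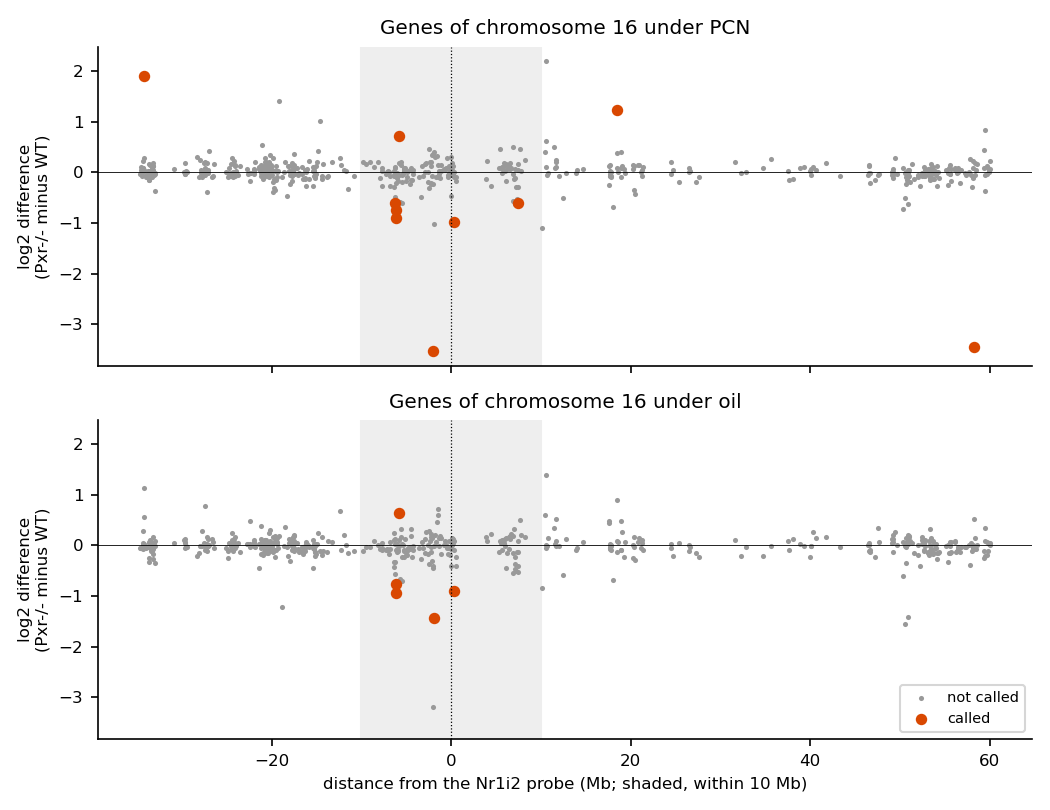
Genotype difference (log2, Pxr-/- minus WT) of genes on chromosome 16 against the distance of their probes from the Nr1i2 probe in Mb, with PCN and with oil, and called genes marked. The shaded 10 Mb on either side hold 7 called genes with PCN and 5 with oil.

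The 13 genes called higher in Pxr-/- mice had smaller differences. Dnase1, a secreted nuclease, had 8.79, 7.43, 7.76, 6.12 and 7.59 in WT PCN and 8.69 to 10.60 (median 9.09) in Pxr-/- PCN. The first WT array lay within the Pxr-/- range (1.89, SE 0.43, adjusted p = 0.0428), and the call was lost in 14 of the 23 fits that left out 1 array (adjusted p up to 0.143), all except those without Pxr-/- CONT array 3, 4 or 6, Pxr-/- PCN array 3, 5 or 6, WT CONT array 1 or 3 or WT PCN array 1. Abi3bp, an extracellular matrix protein gene, had 8.03, 7.62, 8.06, 8.01 and 7.88 in WT PCN against 8.17 to 9.61 (median 9.25), without overlap (1.23, SE 0.20, adjusted p = 0.00198). Its 4 other probes differed by 0.19 to 0.46 and none was called. Bfsp1, a filament protein gene (1.06, SE 0.20), Apol10a, of the apolipoprotein L family (0.75, SE 0.14), Slc25a15, the mitochondrial ornithine carrier (0.61, SE 0.12, adjusted p = 0.0524 without WT PCN array 4), and Ptgr1, which inactivates prostaglandins and leukotrienes (0.60, SE 0.12, adjusted p = 0.0208), were higher as well. The call of Ptgr1 was lost without Pxr-/- PCN array 1 or 5 or WT PCN array 3 or 4. Of the 13, Tctex1d2 and Gzmk were also called with oil.

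Gzmk, granzyme K of cytotoxic lymphocytes, had 6.76, 6.16, 6.46, 6.59 and 6.77 in WT PCN and 6.68 to 8.75 (median 7.93) in Pxr-/- PCN. Only the lowest Pxr-/- array overlapped with WT. Its difference was 1.23 (SE 0.26, adjusted p = 0.0232) with PCN and 1.27 (adjusted p = 0.0254) with oil. The call with PCN was lost without Pxr-/- PCN array 1 or 3 or WT PCN array 2, 3 or 4 (adjusted p of 0.0501 to 0.0857). It was the 1 of 14 cytotoxic lymphocyte genes called with PCN, where the median of the list was 0.53, 1 of the 14 was below 0 and 7 had an unadjusted p under 0.05. With oil the median was 0.83 and 2 were called. The level of the list, which is the median over its genes of the deviation from their WT PCN mean, ran from -0.23 to 0.31 in WT PCN and from -0.46 to 0.84 in Pxr-/- PCN, and the lowest value was that of array 5. Without that array, 6 of the 14 were called higher (Ccl5, Cd8a, Gzma, Gzmb, Gzmk and Nkg7). The median was 0.78 in wash batch 1 alone, with 4 genes called higher (Ccl5, Gzma, Gzmb and Nkg7), and -0.02 in wash batch 2 alone, with 0 called.

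Of 18 interferon-stimulated genes, 0 were called, but all 18 differences were above 0, 14 had an unadjusted p under 0.05, and the median was 0.86, against 0.33 with oil. Ifi44 had the largest (1.29, SE 0.37, adjusted p = 0.168), followed by Usp18, which dampens interferon signalling (1.15, SE 0.44, adjusted p = 0.481), and Zbp1, a sensor of nucleic acids (1.15, SE 0.42, adjusted p = 0.433). The level of the list was -0.43 to 0.50 in WT PCN. In Pxr-/- PCN arrays 1 to 6 it was 1.70, 1.57, 0.79, 0.73, -0.28 and 0.67, so that array 5 lay within the WT range and the other 5 above it. Without array 5, 7 of the 18 were called higher (Ifi44, Ifit2, Mx2, Oas1a, Oasl2, Usp18 and Zbp1), and the number of genes called higher over the whole array was 49 in place of 13. Array 5 also had the highest median local background of the 23 arrays (28.5 on the linear scale), the lowest share of spots above background of its group (63.3%), and the highest level of smooth muscle (0.79) and extracellular matrix genes (0.51) of its group. Their part in the result was not tested.

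Genes of cholesterol synthesis and its regulator SREBP2 went the other way with PCN. Of 22, 0 were called, but 21 differences were below 0, 18 had an unadjusted p under 0.05, and the median was -0.38, against 0.13 with oil. Hmgcs1, an enzyme of an early step (-0.52, SE 0.10, adjusted p = 0.0163), and Tm7sf2, a reductase of a later step (-0.55, SE 0.12, adjusted p = 0.0267), were among those that passed the adjusted p but not the fold threshold. The level of the list was 0.07, 0.06, 0.33, -0.30 and -0.17 in WT PCN and -0.50 to -0.22 (median -0.33) in Pxr-/- PCN, so that WT array 4 lay among the Pxr-/- arrays and array 5 just above them. Without WT PCN array 4, 6 of the 22 were called lower (Hmgcs1, Idi1, Insig1, Mvd and Tm7sf2 among them). Idi1 and Tm7sf2 were called without Pxr-/- PCN array 5, and Idi1 alone without Pxr-/- CONT array 3 or Pxr-/- PCN array 4. With all arrays, Idi1 was called with normexp, a stricter filter on dim probes, slide as a random or fixed block and a trended robust variance. With array weights, both Idi1 and Tm7sf2 were called. Without WT PCN array 3, the median was -0.24. The test of the difference between PCN and oil was called for none of the 22.

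Markers of other cell types were set beside these results. B cell genes had a median of -1.01, with 10 of 10 below 0 and 0 called (5 at an unadjusted p under 0.05). Their level was 1.75 and 1.99 in WT PCN arrays 2 and 3, and -1.39 to -1.01 in the other 3, against -1.50 to 0.18 in Pxr-/- PCN. The median was -0.44 without WT PCN array 3, and Cd79a was called lower without WT PCN array 1. Smooth muscle genes (11, median 0.30, 0 below 0), extracellular matrix genes (16, median 0.27), plasma cell genes (6, median 0.31) and mast cell genes (9, median 0.17) had differences mostly above 0, and none was called. Medians for neutrophil (0.10), macrophage (0.06), adipose (0.01), pancreatic acinar (0.04), liver (-0.19), proximal small intestine (0.08), enteric nervous system (0.11), mesothelium (0.03) and colon genes (0.15) lay between -0.19 and 0.15. In the last 2 lists, Krt7 and B3galt5 were the only genes called. Genes of stem cells (0.02), Paneth and goblet cells (-0.05), enteroendocrine cells (-0.13), brush border digestion (-0.08) and epithelial defence against microbes (0.09) had no member called, with 0, 3, 1, 2 and 3 at an unadjusted p under 0.05. Of 8 genes known to differ between C57BL/6 substrains, 0 were called with PCN and 3 had an unadjusted p under 0.05 (median 0.02). One of them, Fgfbp3, was called lower with oil (-0.63, adjusted p = 0.0128) and with PCN missed the fold threshold alone (-0.58, adjusted p = 0.0199). With PCN it was called in 10 of the 23 fits that left out 1 array (without Pxr-/- CONT array 1, 2 or 3, Pxr-/- PCN array 2, 3 or 4, WT CONT array 3 or 4 or WT PCN array 4 or 5), with the 75th percentile scaling, without the wash batch term, and with slide as a block, where as a fixed block Ide was called too. Genes of retinoid metabolism (0.04), the methionine cycle (0.09), the cell cycle (0.05), antigen presentation (0.05) and ER stress (0.14) had no member called either, with 4, 1, 0, 1 and 2 at an unadjusted p under 0.05. Bhmt of the methionine cycle was called higher without Pxr-/- PCN array 5, WT CONT array 3 or WT PCN array 1, with the 75th percentile scaling, without the wash batch term and with slide as a random block, and Trib3 of the ER stress list without Pxr-/- PCN array 6 or WT CONT array 3. Abcc2 was the only gene called of 9 for ileal bile acid transport (median -0.07). The part of these cell types in the genotype differences was not tested.

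**Figure D5:**
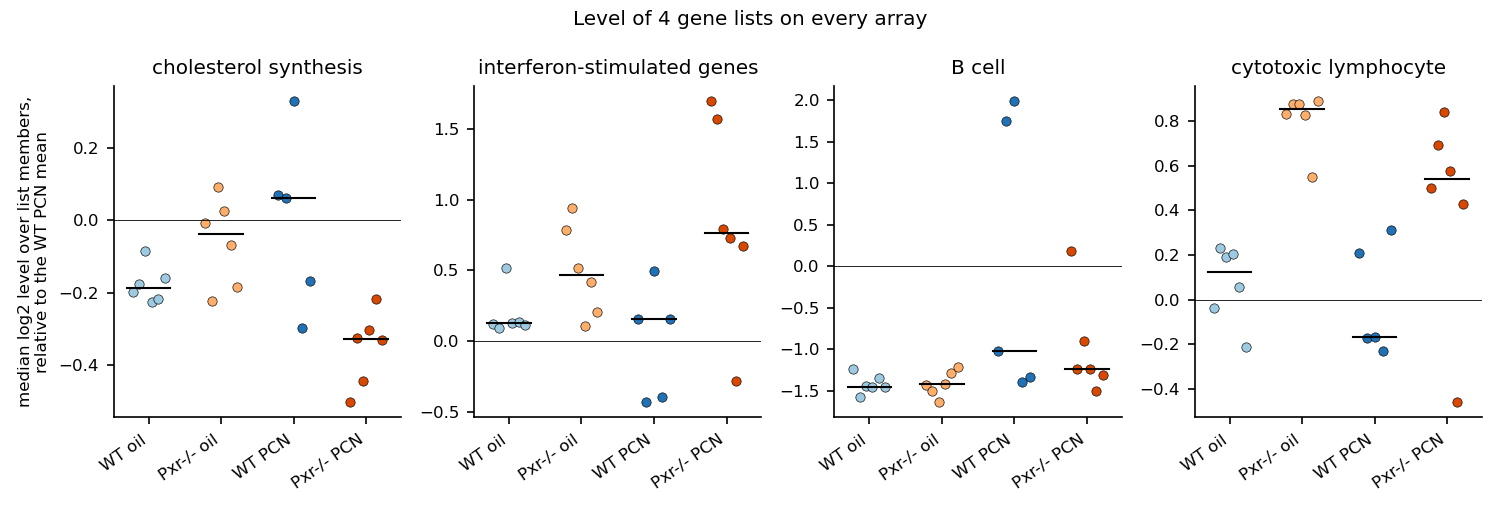
Level of 4 gene lists on each array (log2, median over the list's genes of the deviation from their WT PCN mean), in the 4 groups with oil (CONT) or PCN, with a thick line at the group median and a thin line at 0. Cholesterol synthesis genes lie lower in Pxr-/- PCN than in most of WT PCN, the interferon and cytotoxic lists lie higher on all Pxr-/- PCN arrays but 1, and WT PCN arrays 2 and 3 stand apart in the B cell list.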

How the data were processed

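Ileal RNA of 23 mice (6, 5, 6 and 6 arrays of WT CONT, WT PCN, Pxr-/- CONT and Pxr-/- PCN) had been labelled with Cy3 and hybridised to 1-colour Agilent arrays of 62976 spots, scanned and read with Feature Extraction 10.10.1.1 (submitters' processing notes). Per the file headers, the deposited scanner values are intensity on a linear scale. The authors also deposited a table of log2 values for 37161 probes, which they had filtered on median signal and corrected for wash batch, and in which all columns hold the same sorted values (largest difference 0). It served as an alternative.

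Here, log2 of the median spot signal was quantile normalized after control and outlier-flagged spots were removed. Probes well above background on at least 50% of the arrays of a group were tested (37591), and a gene was represented by its tested probe of highest mean signal (17727 genes). Symbols came from the scanner files, updated through RefSeq accessions (32994 probes), names (10224) or older names (520), and 12867 probes had none. limma 3.58.1 in R 4.3.3 fitted 4 groups and wash batch over 23 arrays, with Benjamini-Hochberg adjustment over all probes. Tested on simulated data under this design, with 200 of 37591 probes changed, the fit recovered 100% of changes of 2, 96% of changes of -1 and 94% of changes of 1 (log2), with 0 false calls. The simulated noise was drawn independently for each probe and array. Shifts shared by many genes of 1 array were not part of it, so false calls from such shifts were not assessed. The number of arrays limits the precision. Nothing says that mice were littermates or shared cages. P-values measure the spread between mice.

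Named genes were Nr1i2, the 12 called genes with the largest difference in each direction, up to 4 called members of each list, the 5 with the largest interaction and the 5 with the largest shared difference with oil in each direction, Cyp3a11, Cyp2b10, Cyp2c55, Gdf15, Ppara, Fgf21 and 4 ileal markers. Members and lists were chosen with earlier results of these data known. Positions of probes come from the annotation of the array (mm9), and their place in exons or UTRs was not analysed here. Alternatives were the processed signal minus its 75th percentile, normexp background correction (offset 50), the authors' table, median centring, no filter or a stricter one, the 11 PCN arrays alone, no wash batch, each wash batch alone, slide as a random or fixed block, the replicate number as a block, a trended robust variance, array weights, no fold threshold, and leaving out each array. Some genes of the lists are counted but not reported here by name.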

Additional observations from a re-analysis of the deposited data

Results flagged for a closer look

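The genotype difference changed with the ligand for 19 of the named genes, by the test of the interaction (log2 difference with PCN minus that with oil). The interaction was -4.06 for Cyp3a41a, -3.75 for Cyp3a16, -3.11 for Cyp3a44, -3.58 for Cyp3a11, -3.89 for Cyp2b10 and -3.80 for Cyp2b9. That of Cyp3a44 missed the threshold when Pxr-/- CONT array 5, Pxr-/- PCN array 2 or 3, WT CONT array 5 or WT PCN array 2 was left out (adjusted p of 0.0519 to 0.0612). It was -1.95 for Ces2a, -1.06 for Ces2f, -2.17 for Gstm3, -1.09 for Gstm6, -1.39 for Akr1b7 and -0.76 for Dhrs1, a short-chain dehydrogenase. Outside these enzymes it was -3.97 for B3galt5, -1.34 for Cpm, -1.05 for Krt31, -0.75 for Elovl6, -1.11 for Ttc39b, a regulator of lipid metabolism, and -1.08 for 4931406C07Rik. Abca8b had a positive value of 1.05. The call of Ces2f was lost without WT PCN array 2 or 3 (adjusted p of 0.0507 and 0.0531), and those of Dhrs1 and Elovl6 each in 18 of the 23 fits that left out 1 array (adjusted p up to 0.126 and 0.123). Dhrs1 kept it without Pxr-/- PCN array 5, WT CONT array 2 or 5 or WT PCN array 1 or 5, and Elovl6 without Pxr-/- CONT array 6, Pxr-/- PCN array 5, WT CONT array 1 or 2 or WT PCN array 4. These effects share arrays with the comparison with PCN and are no independent support for it.

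Single arrays stood apart from the rest of their group in 9 of 206 groups of values (103 named genes in both PCN groups), where chance flags about 1 in 20 groups. In WT PCN these were Gdpd5 at 10.76 in array 5 (the others 10.26 to 10.40), Slc10a2 at 15.06 in array 5 (14.74 to 14.82), Ttc39b at 8.32 in array 3 (8.68 to 8.81) and Gm2061 at 5.81 in array 3 (6.31 to 6.41). In Pxr-/- PCN they were Trim13 at 8.14 in array 1 (7.81 to 7.92), Osbpl9 at 10.32 in array 2 (10.56 to 10.60), Abi3bp at 8.17 in array 2 (9.11 to 9.61), Vil1 at 16.51 in array 3 (16.59 to 16.60) and Nr1i2 at 11.38 in array 6 (11.73 to 11.90).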

How the results depend on the processing

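Of the 96 genes called with PCN, 60 were called in each fit that left out 1 array, 51 of them also under every other alternative except the single wash batches, and 0 changed direction. The number called was 57 in wash batch 1 alone (47 lower) and 32 in wash batch 2 alone (29 lower, 3 higher). It was 155 with no fold threshold (128 lower, 27 higher). With only the 11 PCN arrays it was 71 (63 lower, 8 higher), of which 67 were among the 96. Slide as a fixed block gave 74, of which 65 were among the 96. Leaving out 1 array gave 79 to 138 genes (69 to 90 lower, 9 to 49 higher), with 138 and 49 without Pxr-/- PCN array 5. The authors' table gave 95 genes, all of them among the 96, and 74 of the 96 called without WT PCN array 4 were among the 96 of all arrays. With oil (38 genes), 3 were called in wash batch 1 alone, 21 in wash batch 2 alone, 177 with slide as a fixed block, 146 with array weights, 58 with no fold threshold and 24 to 83 when 1 array was left out (24 without Pxr-/- CONT array 1 or WT CONT array 6, 62 without Pxr-/- CONT array 4, 83 without Pxr-/- PCN array 5). The interaction (21 genes) gave 3 in wash batch 1 alone, 0 in wash batch 2 alone by limma (1193 genes at an unadjusted p under 0.05), 10 with slide as a fixed block and 14 to 25 when 1 array was left out. The cause of these changes was not tested, other than that single batches hold fewer arrays. With the 75th percentile scaling, Ugt2a3 (adjusted p = 0.0514), Csta2 (0.0862), Defb6 (0.0856), Cyp2c29 (0.0696), Ptgr1 (0.0691) and Dnase1 (0.062) lost their calls. So did Gsta2, Cyp4f16, Dnase1, Tmprss7, Ptgr1 and Slc25a15 with array weights, Senp5, Tmprss7, Ptgr1 and Slc25a15 with normexp, Tmprss7, Ptgr1 and Dnase1 with median centring, Cyp2c29 and Dnase1 with no filter, and Csta2 and Dnase1 with the trended robust variance. Near 0, signs changed for Ppara (0.015 in wash batch 2 alone, and -0.21 to 0.0078 when 1 array was left out, above 0 without Pxr-/- PCN array 6), Fabp6 (-0.13 to 0.0066 when 1 array was left out, above 0 without WT PCN array 3) and Slc10a2 (0.044 in wash batch 1 alone, and -0.077 to 0.026 when 1 array was left out, above 0 without Pxr-/- PCN array 3 or WT PCN array 5). Replicate numbers name different animals, and the deviations of same-numbered arrays correlated at -0.094 to 0.080, so they pair nothing; with the replicate number as a block, 88 genes were called (74 lower, 14 higher), 36 with oil and 17 for the interaction.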
